A study of Mus musculus with 4 samples.

Results

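The genes described here are 7 of the 32285 gene rows of 2 single-cell RNA libraries of mouse lung leukocytes. They were taken by symbol and hold the CXCR3 ligands Cxcl9 and Cxcl10 with their receptor Cxcr3, the CXCR6 ligand Cxcl16 with its receptor Cxcr6, and the B cell follicle pair Cxcl13 and Cxcr5. All 7 symbols were found once. The question was which cells carried the RNA of the ligands, which cells carried that of the receptors, and how both differed between genotypes.

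One library came from wild-type (WT) C57B6/J mice and the other from Plaur-/- mice, labelled Plaur KO, whose strain is also given as C57B6/J. Plaur encodes uPAR, the receptor of urokinase on the cell surface. The design lists 8 mice of each genotype, and how many of them went into each library is not stated in the labels. Both genotypes received LPS and ovalbumin on days 0 and 7 and inhaled ovalbumin on day 14, so no unchallenged lung was compared. The protocol describes the cells as circulating CD45.2+ leukocytes sorted from digested lung, while another label calls them a lysate of total lung cells. The labels state neither age nor sex.

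Chemokines are secreted proteins that guide leukocytes through receptors on the cell surface. Interferon-gamma from T cells and NK cells induces CXCL9 and CXCL10 in myeloid cells, and both attract activated T cells that carry CXCR3. CXCL16 is made as a protein anchored in the membrane of macrophages and dendritic cells, and CXCR6, its receptor, marks T cells that stay in tissues such as the lung. CXCL13 draws CXCR5+ B cells and follicular helper T cells into follicles, also those that form in inflamed lung.

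Of these genes, 3 lie on chromosome 5 of GRCm38.p6 (mm10). Cxcl9 was annotated on the minus strand at chr5:92321331-92328079, Cxcl10 on the same strand at chr5:92346638-92348889 and Cxcl13 on the plus strand at chr5:95956939-95961068. The 250 bases before the starts of the 2 CXCR3 ligands are shown because these neighbours are induced by the same cytokine and yet differed in the cells that held their RNA. RefSeq gave chr5:92328080-92328329 for Cxcl9 and chr5:92348890-92349139 for Cxcl10, both on the minus strand and printed 5′ to 3′, with matched motifs in capitals.
Cxcl9: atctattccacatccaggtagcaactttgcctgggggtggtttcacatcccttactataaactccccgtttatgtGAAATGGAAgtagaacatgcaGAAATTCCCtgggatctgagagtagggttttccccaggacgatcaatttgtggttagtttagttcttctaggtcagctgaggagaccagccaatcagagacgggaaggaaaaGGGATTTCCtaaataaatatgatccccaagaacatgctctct
Cxcl10: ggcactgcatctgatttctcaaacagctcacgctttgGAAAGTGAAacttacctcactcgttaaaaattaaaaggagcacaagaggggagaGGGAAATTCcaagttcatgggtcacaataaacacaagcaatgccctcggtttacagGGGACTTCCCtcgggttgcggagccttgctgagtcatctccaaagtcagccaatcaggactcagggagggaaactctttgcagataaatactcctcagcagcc
Among the letters searched on both strands were the core of the interferon-stimulated response element or ISRE (GAAANNGAA), a kB motif of NF-kB (GGGANNTNC) and a T-box motif (AGGTGTGA). Both windows held ISRE and kB letters. In Cxcl10 the ISRE core began 213 bases before the start and the kB matches 159, 103 and 102 bases before it, where the last pair lie on opposite strands and overlap. In Cxcl9 the ISRE core began 175 bases before the start and the kB matches 154 and 42 bases before it. Matches of different motifs did not overlap. Over all 32851 mouse promoter windows of this length, 7.13% held an ISRE core, 12.5% a kB match and 1.12% a T-box match. The windows of Cxcl13, Cxcr3 and Cxcr6 held none of these motifs. Cxcl16 and Cxcr5 had no entry in the promoter table.

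The WT-labelled library had 9024 barcodes with 42913843 gene UMIs (unique molecular identifiers, each counting 1 captured RNA molecule), and the KO-labelled library had 10102 barcodes with 47442215. After filters and doublet removal 8684 and 9584 cells remained, with medians of 3209 and 2777.5 UMIs, and 15 kept barcodes were shared. Levels are CPM, the UMIs of a gene per 1000000 UMIs of the cells summed. Plaur itself stood at 527 and 455 CPM, so that its RNA was present in both, and libraries are named below by their labels. A 3′ tag can lie outside a deleted stretch, and the labels do not state the deleted stretch. Cells were grouped without the 7 genes into 20 classes with at least 30 cells in each library. Each value is given first for the WT-labelled and then for the KO-labelled library. A level is taken over a class's summed cells, a difference is log2 of the KO-labelled level divided by the WT-labelled level, and all intervals are at 95% and cover counting error only. With 1 library per genotype no test was possible, and the genotype cannot be told apart from any other difference between these libraries.

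Senders and receivers were largely different cells. Macrophages held 63.9% and 48.3% of Cxcl9 UMIs and dendritic cells (DCs) 33.2% and 46.1%. For Cxcl16 the same groups held 68.5% and 53.0% and 30.4% and 44.3%. T cells with group 2 innate lymphoid cells (ILC2s) held 94.1% and 94.0% of Cxcr6 UMIs and 71.0% and 58.0% of Cxcr3 UMIs. Cxcl10 was spread more widely, with 49.1% and 34.0% of its UMIs in macrophages, 26.2% and 25.0% in neutrophils and 10.1% and 26.5% in monocytes. B and plasma cells held 75.1% and 60.9% of Cxcr5 UMIs, and macrophages held 98.5% and 82.8% of Cxcl13 UMIs. These shares move with the number of cells of each class captured as well as with the RNA per cell.

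**Figure D1:**
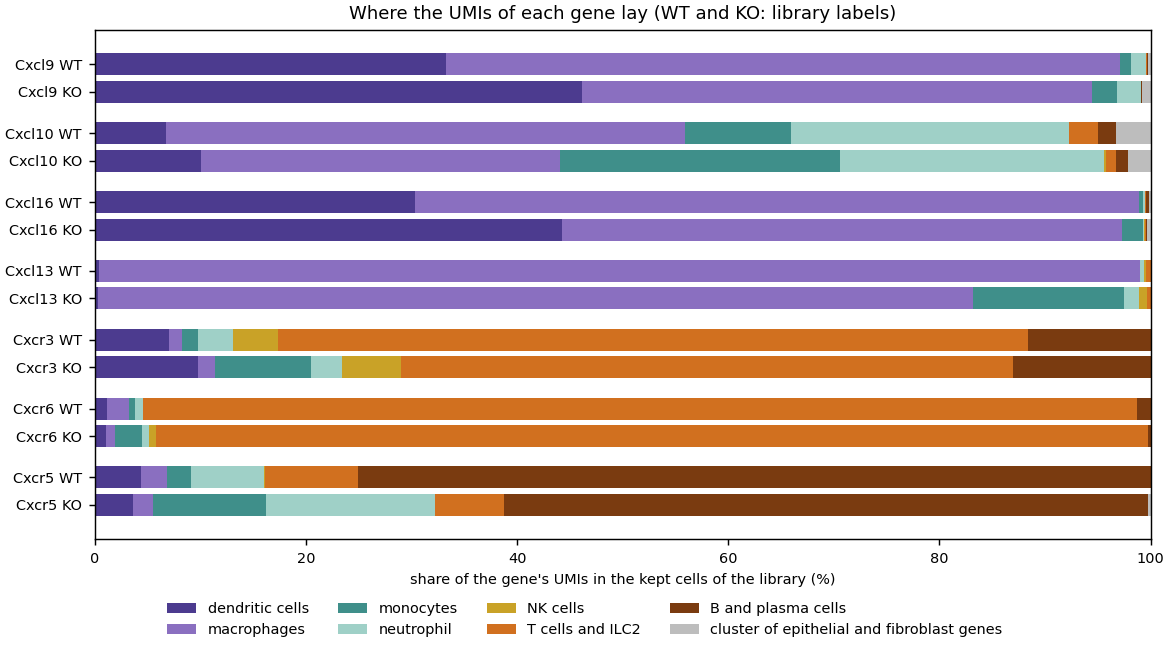
Share of each gene's UMIs (x axis, percent) held by each group of cell classes, with 1 bar for the WT-labelled and 1 for the KO-labelled library. T cells with ILC2s held 94.1% and 94.0% of Cxcr6, while Cxcl10 was divided among macrophages, neutrophils and monocytes.

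Summed over all kept cells, every one of the 7 genes was lower in the KO-labelled library, although none passed 2-fold. Cxcl13, the follicle chemokine, stood at 11.7 and 6.19 CPM, a difference of -0.92 (-1.14 to -0.70). Cxcl16 stood at 194 and 137 CPM, Cxcl9 at 496 and 396 CPM and Cxcl10 at 307 and 226.7 CPM. The receptors Cxcr3, Cxcr6 and Cxcr5 stood at 9.69 and 6.97, at 41.8 and 31.0 and at 34.3 and 24.2 CPM. The median difference of the 7 was -0.48, beside -0.10 over all genes with at least 20 UMIs. Of those genes, 3.17% were lower by 2-fold or more and 2.65% higher. The KO-labelled library held fewer kept macrophages and lymphocytes of several classes and more neutrophils and monocytes (3314 against 2272 neutrophils), so the differences within classes are given for each gene.

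Cxcl9, a CXCR3 ligand, was carried mostly by conventional DCs and interstitial macrophages. Type 1 conventional DCs (cDC1, 186 and 247 cells), which cross-present antigen to CD8 T cells, had the highest level of the 20 classes in each library, 1547 and 1679 CPM. Type 2 conventional DCs (cDC2, 339 and 430 cells), which present antigen to CD4 T cells, had 1267 and 1151 CPM. Interstitial macrophages (933 and 722 cells), which lie in the lung tissue outside the air spaces, had 1074 and 1425 CPM. The order of the latter classes was thus exchanged between libraries, and the intervals of these 3 neighbours did not overlap in either one. CCR7+ DCs, which carry antigen to lymph nodes, followed with 667 and 594 CPM, and alveolar macrophages, the macrophages of the air spaces, with 662 and 461 CPM. In the WT-labelled library the intervals of these 2 overlapped.

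The differences in Cxcl9 stayed under 2-fold in these 5 classes. They were 0.12 (0.05 to 0.19) in cDC1, -0.14 (-0.20 to -0.07) in cDC2 and -0.52 (-0.60 to -0.45) in alveolar macrophages. In interstitial macrophages the pooled difference was 0.41 (0.36 to 0.46), but it reversed to -0.23 when the 3 clusters of this class were weighted alike. The cluster with the highest Cxcl9 (cluster 16) had 2391 and 2068 CPM and made up 264 of 933 and 396 of 722 cells. Cluster 15 had 730.2 and 915 CPM, and cluster 3, with 164 and 22 cells, had 459 and 60.2 CPM. The class therefore held more cells of its Cxcl9-high cluster in the KO-labelled library, while that cluster's own level was lower there.

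The share of cells with a Cxcl9 UMI was 51.1% and 54.3% in cDC1, 50.4% and 47.7% in cDC2, 38.9% and 35.6% in interstitial macrophages and 23.1% and 17.9% in alveolar macrophages. B cells, which are not known as a source of CXCL9, had a UMI in 0.935% and 0.709% of cells, at medians of 2337 and 2048.5 UMIs against 9656 and 9008 in cDC1. After each cell was thinned to 1000 UMIs, the cDC1 share was 38.2% and 33.2% and the interstitial macrophage share 25.5% and 26.1%. The RNA was concentrated in few cells. Single cells reached 217 and 194 Cxcl9 UMIs. In classical monocytes, at 81.3 and 39.5 CPM, 1 WT-labelled cell held 107 of 186 UMIs, and the difference of -1.04 became 0.57 without the 5 cells per library with most UMIs of the gene.

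**Figure D2:**
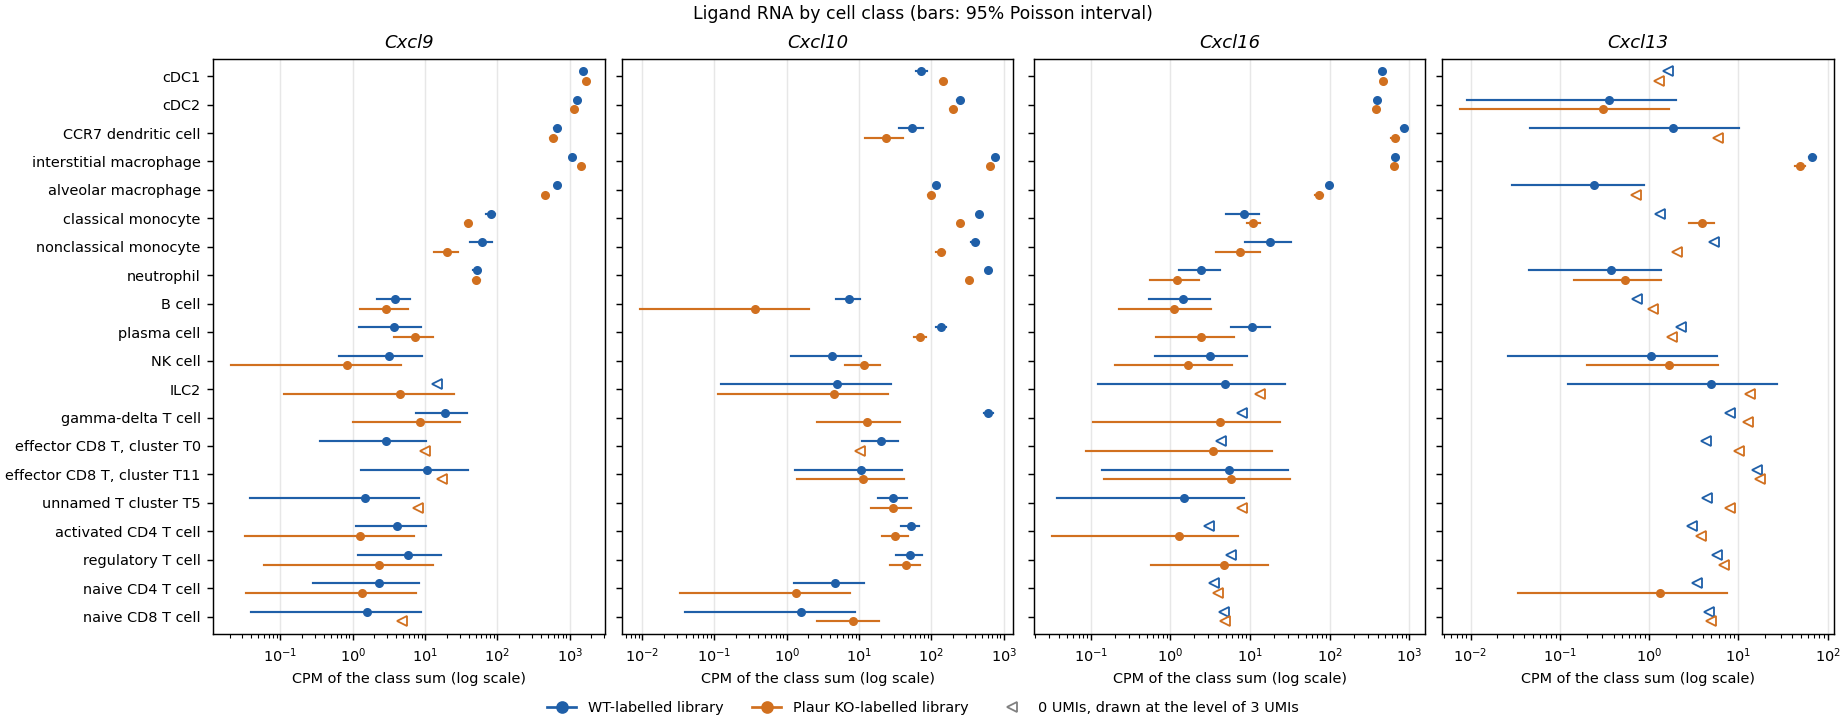
Level of each ligand (x axis, CPM of the class sum, log scale) by cell class (y axis), with 95% Poisson intervals and triangles at the level of 3 UMIs where none was found. Cxcl9 reached 1547 and 1679 CPM in cDC1, Cxcl10 reached 749 and 654 CPM in interstitial macrophages, and Cxcl16 reached 867 and 660.2 CPM in CCR7+ DCs.

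Cxcl10, the other CXCR3 ligand measured, had a different distribution, with neutrophils and monocytes among its carriers. Among the 20 classes, interstitial macrophages had the highest level, 749 and 654 CPM, a difference of -0.19 (-0.26 to -0.13). Neutrophils (2272 and 3314 cells), the short-lived phagocytes of acute inflammation, had 613 and 335 CPM, a difference of -0.87 (-0.95 to -0.80). Classical monocytes (199 and 705 cells), which enter inflamed tissue from blood, had 457 and 248 CPM, a difference of -0.88 (-0.98 to -0.77). cDC2 had 245 and 198 CPM, and alveolar macrophages had 115 and 98.3 CPM. A cluster of epithelial and fibroblast genes, with 26 and 44 cells too small to count among the classes, had 1988 and 552 CPM, of which its 5 highest cells held 99.5% and 95.8%.

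The lower Cxcl10 in KO-labelled neutrophils came with fewer positive cells. A Cxcl10 UMI was found in 20.9% and 10.4% of neutrophils, and in 16.8% and 7.87% after thinning. Naive CD4 T cells had one in 1.06% and 0.353%, at medians of 3046 and 2589 UMIs against 1744.5 and 1729 in neutrophils. Among the neutrophils with a UMI, the median was 4 Cxcl10 UMIs in each library. Interstitial macrophage markers were also lower in KO-labelled neutrophils, at 150 and 15.8 CPM with 0 and 1 of 10 at 0, and T cell markers stood at 56.9 and 16.7 CPM. Their part in the difference was not tested. Neutrophils split into 3 clusters, in 2 of which the difference was smaller than the pooled one. Cluster 6 (997 and 881 cells) had 1199 and 1008 CPM, a difference of -0.25, and cluster 5 (336 and 561 cells) had 401 and 394 CPM, a difference of -0.03. Cluster 17, with little Cxcl10, had 37.9 and 9.55 CPM in 939 and 1872 cells, a difference of -1.99. With the 3 clusters weighted alike the difference was -0.21. Within the interstitial macrophages, cluster 16 had 1505 and 1025 CPM of Cxcl10, cluster 15 had 511 and 353 CPM, and weighting the clusters alike gave -0.93.

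Monocytes and plasma cells also held RNA of other cells. In classical monocytes, where Cxcl10 was lower in the KO-labelled library, summed neutrophil markers (8 genes, none at 0) were higher there, at 42270 and 51784 CPM against 98577 and 123065 CPM in neutrophils. The 10 interstitial macrophage markers were lower there, at 1271 and 576 CPM with 1 and 0 of them at 0. Nonclassical monocytes (135 and 304 cells), which patrol vessels, had 405 and 136 CPM of Cxcl10, a difference of -1.58, while the 10 interstitial macrophage markers summed to 2501 and 633 CPM there. That difference was 2.67 when the 7 genes and the related lists took part in clustering. Their Cxcl9 stood at 60.4 and 19.9 CPM, a difference of -1.60 (-2.37 to -0.85) from 63 UMIs in all. Of the 3 members measured in the class, all were lower by 2-fold or more, beside 2.27% of all genes, and for the third, Cxcl16, the interval held 0. Plasma cells, the antibody secretors, had 137 and 69.7 CPM of Cxcl10, while neutrophil markers summed to 6655 and 13605 CPM. Those markers stood at 14556 and 42306 CPM in their Cxcl10+ cells against 4294 and 5331 CPM in the others. The part of these other cells in the Cxcl10 values was not tested.

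In cDC1, Cxcl10 was higher in the KO-labelled library, at 72.6 and 145 CPM, a difference of 1.00 (0.71 to 1.30). Of the 4 members with at least 20 UMIs in cDC1 it alone passed 2-fold upwards, where 2.17% of all genes did. The UMIs were crowded in few cells. A UMI was present in 17 of 186 and 29 of 247 cells, and 1 KO-labelled cell held 118 of the 341 in that library. Without that cell the difference was 0.40, and without the highest cell of each library 0.72, both under 2-fold. Without the 5 highest cells of each library it was 1.12. Neutrophil markers stood at 307 and 626 CPM in cDC1. In KO-labelled cDC1 they stood at 1827 CPM in cells with Cxcl10 against 446 CPM in those without. In WT-labelled cDC1 the order was the other way, at 78.8 CPM with Cxcl10 and 337 CPM without. The part of these markers in the result was not tested.

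**Figure D3:**
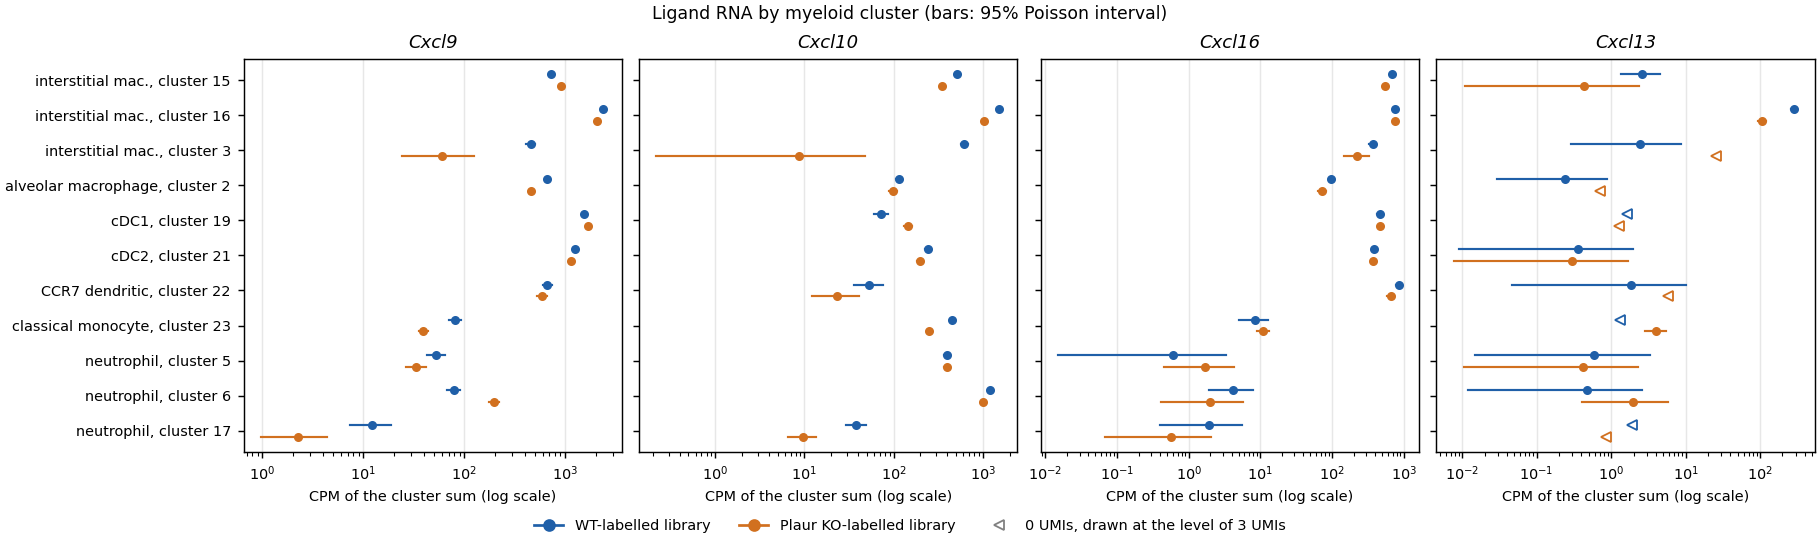
Level of each ligand (x axis, CPM of the cluster sum, log scale) by cluster (y axis), with 95% Poisson intervals, for both libraries. The clusters shown include those of the interstitial macrophages, the neutrophils, the alveolar macrophages, dendritic cells and the classical monocytes. Cluster 16 of the interstitial macrophages had 2391 and 2068 CPM of Cxcl9, and cluster 6 of the neutrophils had 1199 and 1008 CPM of Cxcl10.

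Among lymphocytes, gamma-delta T cells, which reside in barrier tissues and respond early, held Cxcl10 in the WT-labelled library. The 92 WT-labelled cells had 231 Cxcl10 UMIs (617 CPM) and the 68 KO-labelled cells had 3 (12.7 CPM), a difference of -5.60 (-7.89 to -4.04). At 617 CPM their level overlapped that of WT-labelled neutrophils. A UMI was found in 30 of 92 cells (32.6%) and 3 of 68 (4.41%), and after thinning in 22% of WT-labelled cells and in 0 of 65 KO-labelled cells, which allows a share of cells with a UMI of up to 4.62% at that depth. In the WT-labelled library the highest count was 30 UMIs in 1 cell, and the 5 highest cells held 45.5% of the UMIs. Of the 2 members measured in the class it alone passed 2-fold downwards, beside 3.42% of all genes. Over the alternatives that gave a value the difference ran from -5.67 to -3.39. It was chosen for description after its values were seen.

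Markers of neutrophils and macrophages were low in these gamma-delta T cells. Neutrophil markers summed to 107 and 136 CPM, interstitial macrophage markers to 24.0 and 21.2 CPM with 7 of 10 at 0 in each library, and alveolar macrophage markers to 5.34 and 4.23 CPM. Classical monocyte markers stood higher, at 413 CPM in the WT-labelled cells with Cxcl10 and 545 CPM in those without, and at 439 and 621 CPM in the KO-labelled cells, against 4642 and 6030 CPM in WT-labelled classical monocytes with and without it. In the WT-labelled library, cells with and without Cxcl10 had like levels of the gamma-delta markers, 2051 and 2087 CPM. Irf1, a transcription factor induced by interferon-gamma, stood at 536 CPM in the Cxcl10+ cells and 217 CPM in the others. Ifng itself had 0 UMIs in gamma-delta T cells of both libraries.

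Over whole classes, Cxcl9 and Cxcl10 RNA lay in the same cells more often than in cells lacking the partner. The shares of interstitial macrophages and neutrophils pool clusters of unlike Cxcl10 level, and shares within those clusters are not given. In interstitial macrophages, Cxcl10 was found in 66.1% of Cxcl9+ and 23.7% of Cxcl9- cells of the WT-labelled library, and in 58.0% and 11.8% in the KO-labelled one. With cells thinned to 1000 UMIs these shares were 58.8% and 13.4%, and 49.5% and 8.43%. In alveolar macrophages the shares were 39.1% and 4.05%, and 27.8% and 3.61%. In neutrophils 64.3% of the 70 Cxcl9+ cells and 19.5% of the others had Cxcl10 in the WT-labelled library, and 69.4% and 9.07% in the KO-labelled one. In cDC1, whose Cxcl9 level was the highest, Cxcl10 was found in 14.7% of Cxcl9+ and 3.30% of Cxcl9- cells of the WT-labelled library. In the KO-labelled one it was found in 20.9% and 0.885%. Cxcl9+ cDC1 thus had Cxcl10 more often than Cxcl9- ones, but were mostly without detected Cxcl10.

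Cxcl16, the ligand of CXCR6, was detected in a large part of all DCs and macrophages and was spread over many cells. In interstitial macrophages the 5 highest cells held 2.69% and 2.99% of its UMIs, against 11.3% and 11.3% for Cxcl9. CCR7+ DCs (73 and 79 cells) had 867 and 660.2 CPM, a difference of -0.39 (-0.60 to -0.19), with a UMI in 98.6% and 86.1% of cells. Interstitial macrophages had 665 and 637 CPM, a difference of -0.06 (-0.13 to 0.01), with a UMI in 83.7% and 85% of cells. The intervals of these classes overlapped in the KO-labelled library only. cDC1 had 461 and 466 CPM and cDC2 had 392 and 377 CPM, differences of 0.01 and -0.06. Alveolar macrophages were much lower, at 98.5 and 72.8 CPM, a difference of -0.44.

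Thinning brought the Cxcl16 shares to 53.4% and 41.8% in CCR7+ DCs and 44.9% and 45.0% in interstitial macrophages. Neutrophils, at 2.42 and 1.2 CPM with a UMI in 0.572% and 0.272% of cells, gave the background. Neutrophils and monocytes, which carried Cxcl10, thus had little Cxcl16, with 8.31 and 11 CPM in classical monocytes. Within the interstitial macrophages, the Cxcl9-high cluster 16 had 765 and 757 CPM of Cxcl16, cluster 15 had 684 and 549.6 CPM and cluster 3 had 369.8 and 224 CPM. The proteases that release CXCL16 from the membrane, Adam10 and Adam17, were present in the same class at 131 and 146 CPM and at 197 and 178 CPM. In cDC2 before thinning, Cxcl16 was found in 85.4% of Cxcl9+ and 42.3% of Cxcl9- cells of the WT-labelled library. In the KO-labelled one it was found in 84.4% and 48.0%. The order in cDC2 held after thinning in both libraries, at 42.9% and 19.2% in the KO-labelled one. In interstitial macrophages the shares before thinning were 84.6% and 83.2%, and 94.9% and 79.6%. After thinning they were 53.5% and 41.99%, and 54.3% and 41.8%. In CCR7+ DCs the shares were 100% and 97.6% before thinning in the WT-labelled library. After thinning in the KO-labelled one the order was the other way, at 38.5% and 42.4%.

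Cxcl13, the ligand of CXCR5, came from very few interstitial macrophages. The class held 471 of 480 and 226 of 273 UMIs, 67.5 and 49.6 CPM, a difference of -0.45 (-0.68 to -0.21). They lay in 25 of 933 and 16 of 722 cells, and the 5 highest cells held 76.6% and 87.6% of them, with up to 103 and 82 UMIs in 1 cell. Cluster 16 contained 457 and 225 of these UMIs, 289.6 and 107 CPM, a difference of -1.44 (-1.67 to -1.20). It had Cxcl13 in 7.95% and 3.79% of its cells. Without the 5 cells per library with most UMIs the class difference was -1.35. In the KO-labelled library 38 further UMIs lay in 1 classical monocyte. Cxcl13 was found in 2.75% of Cxcl9+ and 2.63% of Cxcl9- interstitial macrophages of the WT-labelled library and in 0.778% and 3.01% in the KO-labelled one. Only 10 and 2 cells held both, too few to tell whether the genes go together.

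**Figure D4:**
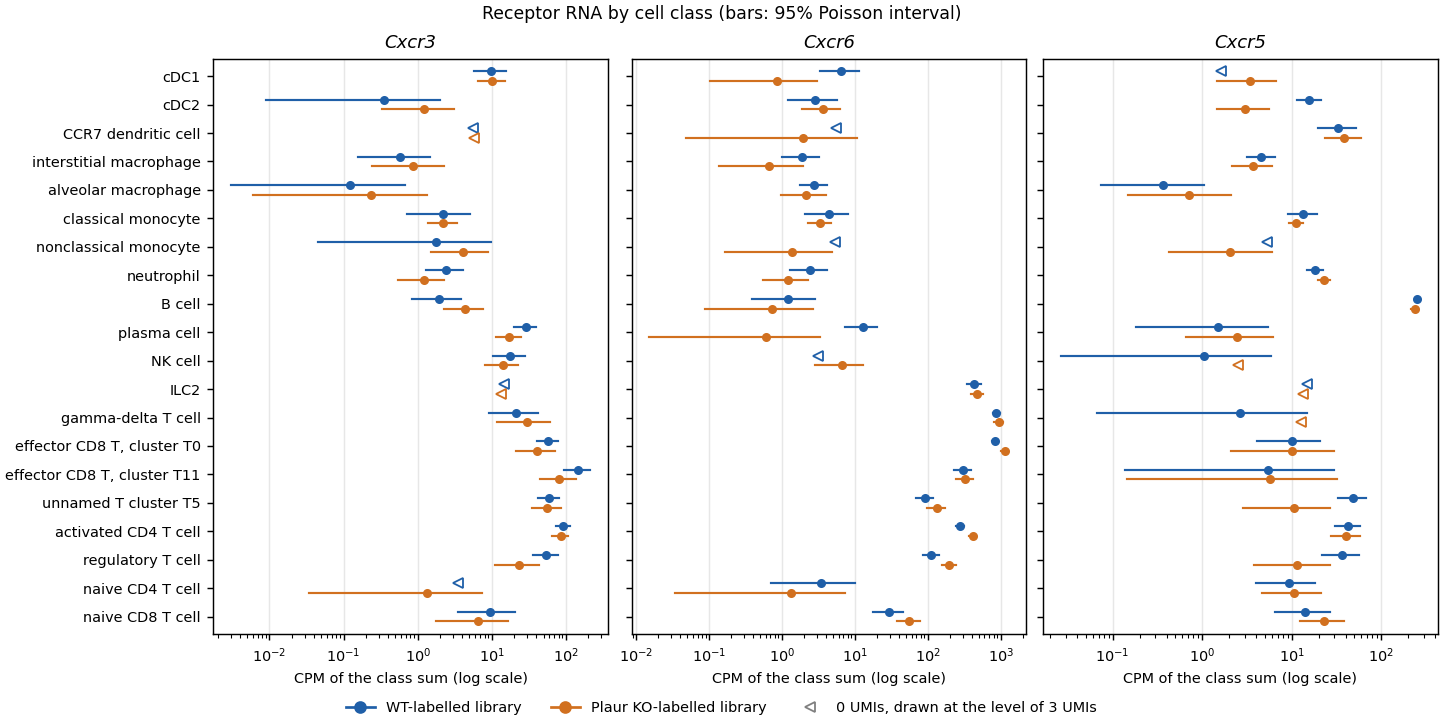
Level of each receptor (x axis, CPM of the class sum, log scale) by cell class (y axis), with 95% Poisson intervals and triangles at the level of 3 UMIs where none was found. Cxcr6 was highest in gamma-delta T cells and effector CD8 cluster T0, Cxcr3 was spread over T cell classes with overlapping intervals, and Cxcr5 was highest in B cells at 254 and 236 CPM.

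Cxcr3, the receptor of CXCL9 and CXCL10, was captured sparsely, with 397 and 307 UMIs in all kept cells. Activated CD4 T cells (288 and 272 cells) had 92.3 and 85.1 CPM, a difference of -0.12 (-0.59 to 0.35), with a UMI in 20.8% and 20.6% of cells. That difference was -1.07 with doublet calls kept and -1.09 under a stricter mitochondrial filter. The marker set of effector CD8 T cells, the cytotoxic T cells, was met by 2 clusters, T0 and T11, which are given apart. The 10 leading genes of T11 held none of that set's markers and 1 NK cell marker, Gzma, and NK cell markers summed to 2775 and 4022 CPM in it beside 5325 and 5094 CPM of T cell markers, so that T11 is named by number, although the plots carry the name of the set it met. Cluster T11 (54 and 59 cells) had 145 and 80.7 CPM of Cxcr3, and cluster T0 (207 and 92 cells) had 56.6 and 40.7 CPM. Regulatory T cells, which restrain other T cells, had 54.0 and 23.2 CPM, a difference of -1.22 (-2.42 to -0.13) from 38 UMIs in all. T5 and T2, T cell clusters that met no marker set, had 58.4 and 55.7 CPM and, in only 41 and 21 cells, 202 and 209 CPM. Intervals of neighbours in this order overlapped throughout the T cell classes in both libraries.

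Outside T cells, Cxcr3 RNA was lower but present. NK cells (312 and 460 cells), which kill without prior priming, had 17.8 and 14.1 CPM with a UMI in 5.45% and 3.26% of cells. Plasma cells had 28.6 and 17 CPM, and cDC1 had 9.83 and 10.2 CPM with a UMI in 7.53% and 7.69% of cells. Neutrophils, the background, had 2.42 and 1.2 CPM and a UMI in 0.440% and 0.272% of cells. ILC2s and CCR7+ DCs had 0 Cxcr3 UMIs in both libraries. For ILC2s this allows up to 14.7 and 13.4 CPM, and the interval of ILC2s overlapped that of NK cells in both libraries, so a lower level than in NK cells was not detectable at this depth. After thinning, the share in activated CD4 T cells was 7.34% and 6.72%.

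Cxcr6, the receptor of CXCL16, was the best captured receptor in T cells and ILC2s. Gamma-delta T cells had 865 and 940.1 CPM and effector CD8 cluster T0 had 826 and 1135 CPM, with overlapping intervals in each library. A UMI was found in 91.3% and 88.2% of gamma-delta T cells and in 80.2% and 81.5% of T0 cells, and after thinning in 56.0% and 58.5% and in 56.2% and 61.5%. ILC2s (55 and 70 cells), the innate source of type 2 cytokines in allergy, had 432 and 473 CPM with a UMI in 70.9% and 70.0% of cells. Cluster T11 had 307 and 323 CPM and activated CD4 T cells had 278 and 411 CPM. Regulatory T cells had 112 and 198 CPM, and naive CD8 T cells had 29.8 and 55.3 CPM.

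In all 8 classes with at least 50 Cxcr6 UMIs and at least 30 cells in each library the level was higher in the KO-labelled library, the opposite of the level summed over all kept cells. Alternatives turned it below 0 in gamma-delta T cells (-0.06) and cluster T11 (-0.05). Of the T cell clusters with fewer cells in a library, T2 had 736 and 613 CPM and cycling T cells had 139 and 29.9 CPM. The difference was 0.46 (0.26 to 0.66) in T0, 0.57 (0.33 to 0.80) in activated CD4 T cells, 0.82 (0.32 to 1.33) in regulatory T cells and 0.12 in gamma-delta T cells. Epithelial markers summed to 258 and 2687 CPM in regulatory T cells, and their part in that difference was not tested. In activated CD4 T cells the share of cells with a UMI was 39.6% and 39.7% before thinning and 19.9% and 28.0% after it. Over the alternatives the difference ran from 0.50 to 1.33 in activated CD4 and from 0.66 to 1.19 in regulatory T cells. Of the subclusters of activated CD4 T cells, T3 had 357 and 666 CPM and T6 had 234 and 290.4 CPM.

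Few Cxcr6 UMIs were found in NK cells and naive CD4 T cells. None was found in 312 WT-labelled NK cells, which allows a share of cells with a UMI of up to 0.962% but does not limit the share expressing the gene, and 8 lay in 1 of 460 KO-labelled NK cells. Naive CD4 T cells had 3 and 1 UMIs. Neutrophils had a Cxcr6 UMI in 0.308% and 0.181% of cells. Both receptors were thus detected in cluster T0 and activated CD4 T cells, while NK cells had Cxcr3 with few Cxcr6 UMIs. In the same cells, Cxcr6 was found in 33.3% of Cxcr3+ and 41.2% of Cxcr3- activated CD4 T cells of the WT-labelled library, and in 23.2% and 44.0% in the KO-labelled one. Those shares rest on 60 and 56 Cxcr3+ cells. Cluster T0 had the same order, at 63.6% and 83.3%, and 72.7% and 82.7%. In T11 it was the other way, at 68.4% and 48.6%, and 90.0% and 42.9%, from 19 and 10 Cxcr3+ cells. After thinning T11 had 16.7% and 33.3%, and 14.3% and 27.5%. In T5 and gamma-delta T cells the order before thinning differed between libraries.

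Cxcr5, the receptor of CXCL13, was highest in B cells (1497 and 1128 cells), at 254 and 236 CPM, a difference of -0.10 (-0.25 to 0.04). A UMI was found in 44.1% and 39.3% of B cells, and in 21.9% and 20.2% after thinning. The 3 B cell clusters had 281 and 280.0, 193 and 159, and 251 and 209.9 CPM. Activated CD4 T cells, which can include follicular helper cells, had 42.6 and 40.6 CPM with a UMI in 11.1% and 8.09% of cells. Regulatory T cells had 36.6 and 11.6 CPM and cluster T5 had 47.9 and 10.6 CPM, from 36 UMIs in all. CCR7+ DCs had 33.1 and 39.0 CPM with a UMI in 17.8% and 19% of cells. Intervals of neighbours overlapped below the B cells.

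Cxcr5 was also found in myeloid cells. Neutrophils had 18.2 and 22.9 CPM with a UMI in 3.74% and 4.53% of cells, and in 1.66% and 1.63% after thinning, against 0.292% and 0.468% in alveolar macrophages, whose medians were 7721 and 6568 UMIs. B cell markers summed to 44.8 and 39.1 CPM in neutrophils, against 12623 and 12910.0 CPM in B cells. Classical monocytes had 13.6 and 11.2 CPM. In cDC2 there were 44 and 10 Cxcr5 UMIs, 15.7 and 3.02 CPM, a difference of -2.38 (-3.53 to -1.36). B cell markers there summed to 89.9 and 86.7 CPM and T cell markers to 90.2 and 33.8 CPM. Their part in the difference was not tested. The cDC2 difference ran from -2.89 to -1.02 over the alternatives that gave a value. Of the 5 members measured in cDC2 it alone passed 2-fold downwards, beside 1.52% of all genes.

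**Figure D5:**
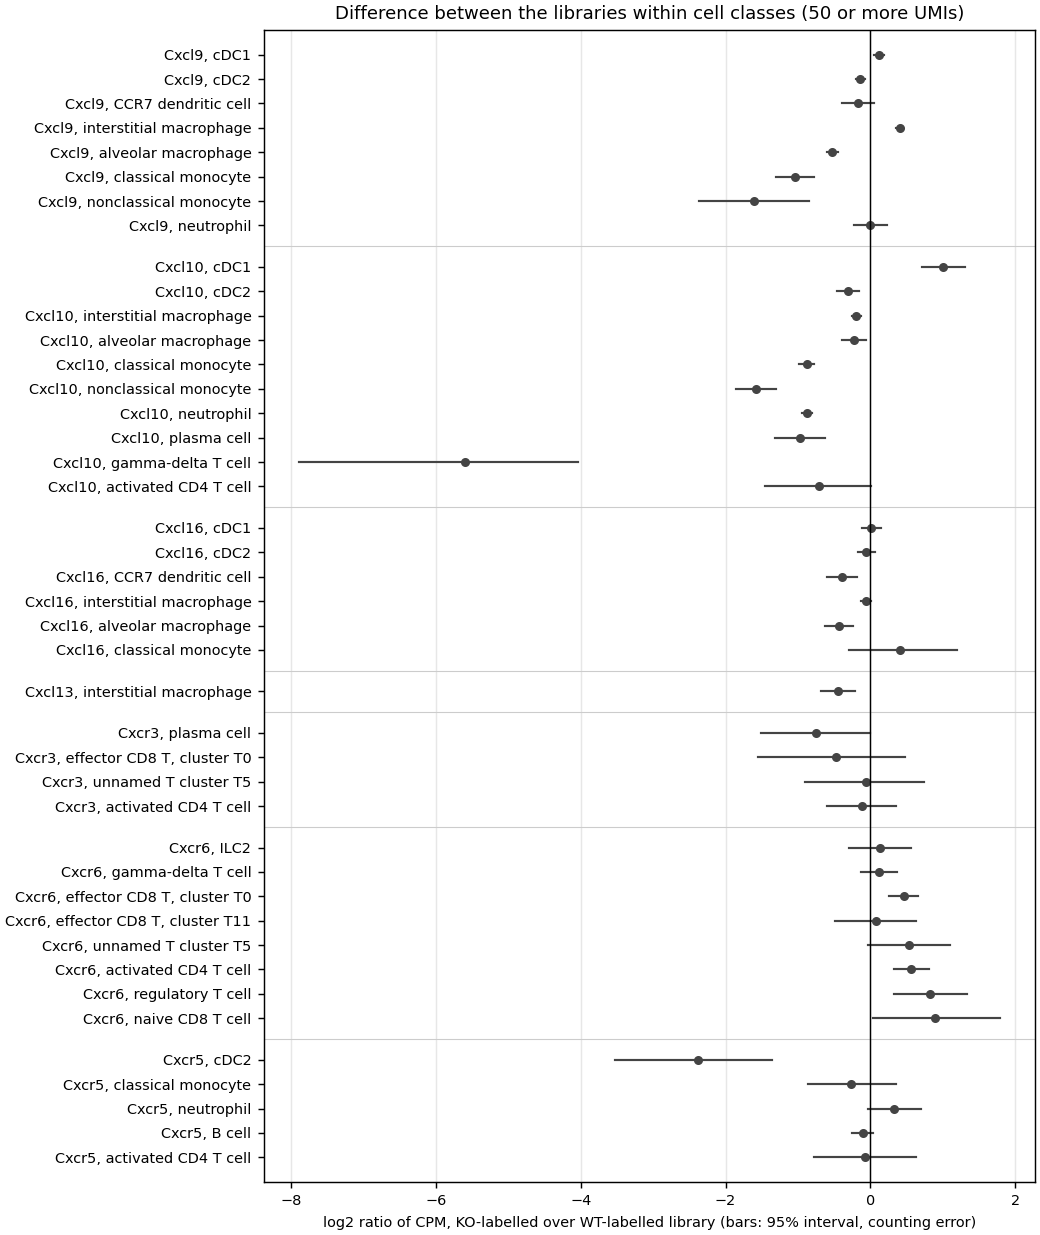
Difference on the log2 scale, KO-labelled against WT-labelled (x axis), for each of the 7 genes in each class with at least 50 UMIs of the gene over both libraries and 30 cells in each, with exact conditional 95% intervals. Of 42 ratios, 28 lay below 0, and the interval lay wholly below 0 for 17 and wholly above it for 7.

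Across all classes, 42 ratios of the 7 genes rested on at least 50 UMIs. Of these 28 were below 0, and counting intervals excluded 0 for 17 on the lower and 7 on the higher side. A like count over all genes is not given. The 5 that were lower by 2-fold or more were Cxcl9 and Cxcl10 in nonclassical monocytes, Cxcl9 in classical monocytes, Cxcl10 in gamma-delta T cells and Cxcr5 in cDC2. The 1 that was higher was Cxcl10 in cDC1. Of all genes with at least 50 UMIs, 1.09%, 2.47%, 0.598% and 0.641% were lower by 2-fold or more in these 4 classes, in that order. In cDC1 0.727% were higher. Cxcl10 in nonclassical and Cxcl9 in classical monocytes turned above 0 under alternatives, and Cxcl10 in cDC1 fell under 2-fold without its highest cell. In neutrophils 3 of the 6 measured genes were lower by 2-fold or more, beside 3.74% of all genes, but those were Cxcl16, Cxcr3 and Cxcr6 at 22 UMIs each. In interstitial macrophages 0 of 5 passed 2-fold, where 3.18% of all genes were lower and 1.64% higher. In activated CD4 T cells 0 of 4 passed, beside 1.56% and 2.04%.

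Genes around the CXCR3 axis were read from lists of interferon-gamma production, signalling and response and of the type I interferon response. Ifng, the inducer of CXCL9 and CXCL10, was highest in effector CD8 cluster T0 at 707 and 501 CPM, a difference of -0.50, and that cluster held 47.3% and 30.1% of all Ifng UMIs. NK cells had 198 and 136 CPM of Ifng with 18.4% and 33.4% of its UMIs, and activated CD4 T cells had 144 and 82.5 CPM. Il12b, a subunit of the IL-12 that drives Ifng, stood at 31.1 and 5.54 CPM in cDC1 and 46.4 and 10.3 CPM in cDC2. In CCR7+ DCs, which held most of it, it stood at 895 and 734 CPM, a difference of -0.29 (-0.48 to -0.09). Irf1, which acts at interferon-induced promoters, was also lower in several Cxcl10 carriers in which Cxcl10 was lower. It stood at 1121 and 577 CPM in neutrophils, 725 and 289 CPM in classical monocytes, 321 and 180.5 CPM in interstitial macrophages and 328 and 165 CPM in gamma-delta T cells. In cDC1, where Cxcl10 was higher in the KO-labelled library, Irf1 stood at 199 and 216 CPM in cells with Cxcl10. The cDC1 without Cxcl10, 169 of 186 and 218 of 247 cells, had 79.9 and 42.2 CPM of Irf1. In this larger part of the class Irf1 was thus lower in the KO-labelled library, although Cxcl10 was higher in the class. Alveolar macrophages had 300 and 336 CPM of Irf1 in cells with Cxcl10 and 81.7 and 51.1 CPM in those without.

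In interstitial macrophages 11 of 13 measured genes of interferon-gamma production and signalling were below 0 and 1 passed 2-fold lower, with a median of -0.29 beside -0.03 over all genes. Of the type I interferon genes, which include Cmpk2 (7.02 and 3.29 CPM) and Usp18 (17.5 and 8.33 CPM), 11 of 13 were below 0 and 3 passed 2-fold lower, beside 3.18% of all genes, with a median of -0.59. Of the interferon-gamma response genes, 12 of 16 were below 0 and 1 passed 2-fold lower, with a median of -0.10. These lists are given for the pooled interstitial macrophages only, whose make-up differed between libraries. Cluster 3 held 164 and 22 cells, cluster 15 held 505 and 304 and cluster 16 held 264 and 396. The part of this make-up in the list values was not tested. In neutrophils the same type I list went the other way, with 12 of 12 above 0, 4 past 2-fold higher where 1.74% of all genes were, and a median of 0.69 beside -0.06. Ifit1 and Ifit3, which bind viral RNA or support that binding, stood at 25.1 and 72.1 CPM and at 14.1 and 39.2 CPM there. As a pooled class, neutrophils thus had lower Cxcl10 and higher type I interferon genes in the KO-labelled library. Cluster 17, with little Cxcl10, made up 939 and 1872 of these cells, and the Cxcl10 difference was smaller within clusters 5 and 6. For neutrophils the type I list is given for the pooled class only. In classical monocytes 10 of 13 genes of this list were also above 0, with a median of 0.34 beside -0.05. There 0 passed 2-fold higher and 1 lower, beside 3.21% and 4.27% of all genes. In alveolar macrophages 10 of 12 were below 0, with a median of -0.31 beside -0.01, and 1 passed 2-fold lower, beside 1.51%. In gamma-delta T cells 11 of 13 interferon-gamma response genes were below 0 and 2 passed 2-fold lower, beside 3.42% of all genes, with a median of -0.49 beside 0.03. They were Iigp1 at 251 and 84.7 CPM and Serpina3g at 328 and 119 CPM.

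Genes around the CXCR6 and CXCR5 axes were read from lists of tissue retention and of the follicle. In activated CD4 T cells, 9 retention genes were measured and 1 passed 2-fold higher, beside 2.04% of all genes. It was Runx3, a transcription factor of cytotoxic and resident T cells, at 59.8 and 168 CPM, a difference of 1.49. Cd69, which keeps T cells in tissue by opposing S1PR1, stood at 153 and 237 CPM there. Of 11 follicle genes in the same class, 2 passed 2-fold lower, beside 1.56% of all genes. They were Il21, the helper cytokine for B cells, at 165 and 66.0 CPM, and Lta, a lymphotoxin subunit needed for lymphoid tissue, at 95.3 and 47.0 CPM. Pdcd1, which encodes the checkpoint receptor PD-1 of activated and follicular helper T cells, stood at 94.3 and 127 CPM.

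The genes most like each of the 7 in their level across classes were found by Pearson's r of log2(CPM + 1) over 40 profiles, 20 classes in each of 2 libraries. For Cxcl9 they were Soga1 (r = 0.94), Bcl2a1a (0.93) and Batf2 (0.92). For Cxcl16 they were Arhgap22 (0.93), Procr (0.92) and Anpep (0.92), and for Cxcl10 they were Gm34455 (0.84), Ccrl2 (0.83) and Cd300c2 (0.82). For Cxcl13 they were Cd209f (0.88), Ms4a14 (0.88) and Pla2g2d (0.84). Among receptors, the genes most like Cxcr6 were Pdcd1 (0.93), Ptpn13 (0.92) and Acsbg1 (0.92). Cxcr3 was most like Hist2h2bb (0.84), Cd28 (0.79) and Anxa6 (0.79), and Cxcr5 most like Hsh2d (0.77), Ddx6 (0.72) and Fbxo11 (0.69). Ddx6 lies at chr9:44602983-44640731, near Cxcr5 at chr9:44511787-44526444. Among the 7, Cxcl9 and Cxcl16 were alike at 0.89, Cxcl9 and Cxcl10 at 0.67, and Cxcr3 and Cxcr6 at 0.62. The profiles share 2 libraries and their classes' depths, so these values describe likeness only.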

How the data were processed

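The authors deposited UMI counts per gene and cell barcode, not normalized, with 1 RNA library per genotype, and antibody counts that were not used here. Per the file headers, Cell Ranger 7.0.0 wrote the RNA matrices, and the submitters' processing notes name Cell Ranger 7.1.0 and 7.0.0 and mm10.

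Barcodes under 200 genes or above 10% mitochondrial UMIs were left out (80 and 61). Scrublet (expected share 8%) then removed 260 (2.91%) and 457 (4.55%) doublets. Both libraries were clustered together in scanpy 1.11.5 (3000 variable genes, 30 principal components, 15 neighbours, Leiden resolution 1) without the 7 genes, the genes of 7 related lists, Plaur, mitochondrial, ribosomal, sex-linked and receptor segment genes. This gave 25 clusters. The 6 T cell and ILC clusters were clustered again into 15, a step chosen after the first clusters were seen. A class name needed 3 markers of 1 of 28 sets, each in at least 20% of cells and 2-fold over other cells. Effector CD8 T cells were compared by cluster, because T11 had more NK than CD8 markers among its leading genes.

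UMIs were summed per class and library. CPM has exact Poisson, shares Clopper-Pearson and ratios exact conditional binomial intervals at 95%, and a count of 0 has a limit of 3 counts. Ratios needed 50 UMIs over both libraries, and lists and background shares 20. A gene was called at 2-fold. Thinned shares use cells drawn down to 1000 UMIs, without shallower cells (191 and 290). Named genes are the 7, up to 2 highest and 2 lowest of a list in a class, and the 3 most alike. The description of gamma-delta T cells, the values by cluster the split of cells by Cxcl10 and Il12b in CCR7+ DCs were chosen after their values were seen. The members and lists were chosen with earlier results of these data known. In simulated data, 95.6% of intervals held the true ratio for neutrophils (7314 genes) and 96.0% for gamma-delta T cells (2340 genes). Of 200 genes changed by log2 1, the interval excluded 0 for 95.5% and 81.0%. The counts were drawn with Poisson spread, which the intervals assume, so coverage for genes crowded in few cells was not tested. Promoters came from RefSeq (GRCm38.p6), with 5 of 7 genes matched, and a further motif searched is not reported here. Other scalings came from edgeR 4.0.16 and DESeq2 1.42.0 in R 4.3.3. The remaining work used Python 3.11.15 with igraph 0.11.9, scikit-learn 1.9.0, SciPy 1.17.1, NumPy 2.4.6, matplotlib 3.10.9 and pandas 2.3.3.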

Additional observations from a re-analysis of the deposited data

How the results depend on the processing

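Of 63 ratios recomputed under other filters, clusterings, scalings, thinning, left-out cells or cluster weights for the leading class of each gene, 50 moved by less than their counting interval and 13 by more. Of 325 recomputed ratios elsewhere, 271 did not move beyond it, 47 did and 7 reversed, and of 100 shares 61 did not and 39 did. With doublet calls kept, the Cxcl9 ratio was 0.19 in cDC1 and 0.30 in classical monocytes, the Cxcl10 ratio in interstitial macrophages was -0.36 and the Cxcr3 ratio in activated CD4 T cells was -1.07. The latter was -1.09 with at most 5% mitochondrial UMIs, -0.60 at resolution 0.5 and -0.78 with each library clustered alone. Clustering each library alone also turned Cxcl9 in cDC2 to 0.046. With the 7 genes and lists kept in clustering, Cxcl10 was -0.31 in interstitial macrophages and 2.67 in nonclassical monocytes. Thinning gave -0.41 for Cxcl10 and -0.74 for Cxcl13 in interstitial macrophages and 0.13 for Cxcr3 in plasma cells. Without the 5 cells per library with most UMIs, Cxcl10 was -0.34 and Cxcl13 -1.35 in interstitial macrophages, Cxcl9 was 0.57 in classical monocytes and Cxcl10 was 0.30 in plasma cells. Weighting clusters alike gave -0.93 for Cxcl10, -1.46 for Cxcl13 and -0.23 for Cxcl9 in interstitial macrophages. Leaving out the highest Cxcl10 cell of cDC1, chosen after seeing the data, gave 0.40, or 0.72 with the highest of each library left out. The cause was not tested. The other scalings moved the median of all genes by over 0.1 in classical monocytes (-0.13 with TMM, -0.11 with DESeq2) and ILC2s (0.13 with TMM). No value was had for CCR7+ DCs under 5 of the new clusterings, for T cell clusters T0, T5 and T11 under all 6, and for gamma-delta Cxcl10 thinned or without its 5 highest cells. No paired analysis was possible because each genotype had 1 library. Depth limits the ratios of Cxcr3, with 397 and 307 UMIs in all.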
